A study of Mus musculus with 6 samples.

Results

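The 8-week comparison set dorsal skin that had been treated outside the body with PBMC-sec against untreated dorsal skin of mice of the same age. PBMC-sec is the secretome, that is everything released into the medium, of peripheral blood mononuclear cells after gamma irradiation. A barcode of either 8-week library counted as a cell if it held 500 or more unique molecular identifiers (UMIs, 1 for each captured RNA molecule) from 300 or more genes, no more than 10% of them mitochondrial. This left 9237 untreated and 5459 treated cells, which are 14696 of the 34834 cells of the whole series. All mice were male wild-type C57BL/6 animals, and each library pooled the skin of 3 of them. Untreated skin went directly to dissociation, whereas treated skin was first kept outside the body, so PBMC-sec and the ex vivo holding cannot be told apart. The labels used here give no dose and no duration, and they do not say whether both libraries came from the same mice. With 1 pooled library on each side there is no replicate, and no difference below has a test. The intervals given are 95% exact intervals that cover counting error only, and PCR, pooling and animal variation lie outside them.

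Skin is built from an outer epithelium of keratinocytes, which divide in the basal layer, move upward as suprabasal cells and end as the cornified barrier, with hair follicles set into it. Below lies a dermis of fibroblasts, vessels and immune cells. Type I interferons act through transcription factors that bind the interferon-stimulated response element and switch on antiviral genes such as Isg15 and the Ifit family. The same signal, and interferon gamma, also raise the machinery that loads peptides onto MHC class I. Cells that lose water to salty surroundings switch on another program under the factor NFAT5, in which aldose reductase makes the compatible solute sorbitol.

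The 8-week libraries held nearly equal numbers of UMIs in their cells, 23564566 untreated and 23547044 treated, but spread them over different numbers of cells. The median cell had 1128 UMIs in the untreated and 2613 in the treated library, while the other libraries of the series had medians between 2211 and 4804. Gm42418, a transcript that overlaps ribosomal RNA, took 5.19% of untreated and 3.32% of treated UMIs, and the nuclear RNA Malat1 took 1.37% and 2.72%. The cells of the 8-week libraries had 77 barcodes in common, against 21 to 78 for all pairs of libraries. The automatic doublet call of Scrublet marked 0 barcodes in every library and was therefore not used.

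The untreated 8-week library held many barcodes with nearly the same profile. Each library was split into fine clusters, and in each cluster of at least 10 barcodes the spread around a single shared profile beyond that of random sampling was measured as an overdispersion. At a spread of at most 0.1 the untreated 8-week library had 83 such groups with 2643 barcodes, which is 28.6% of its barcodes and 11.5% of its UMIs. The other libraries had 0, 11, 0, 0 and 38 such barcodes, and 0, 14, 0, 0 and 0 after thinning to about the depth of the untreated 8-week library. The threshold was chosen after the data had been seen, and at 0.05 or 0.15 the number was 1045 or 3477. The groups held 10 to 85 barcodes with a median of 25.

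These barcodes were shallow and mostly keratinocytes. Their median was 861 UMIs, against 1443.5 for the other barcodes of the library, and Gm42418 took 10.2% of their UMIs against 4.54%. By markers 2317 were keratinocytes, 314 held markers of more than 1 lineage at like levels and 8 were fibroblasts. They made up 31.4% of the untreated keratinocytes and 12.97% of the keratinocyte UMIs. The group with the least spread, 0.0072, had 15 barcodes led by Sprr2f, Krt1 and Stfa3. Within a group the barcodes differed on average at 11.99 of their 16 bases, close to the 11.98 of any barcodes of the library. Summed over the 2317 keratinocytes among them, the genes with the highest CPM (UMIs of a gene divided by all UMIs of the same cells, times 1000000) were Gm42418 at 101548, Malat1 at 13009, AY036118 at 12914, Lgals7 at 10753 and Lars2 at 9241. The highest folds against the other untreated keratinocytes were those of Saa3 at 817 against 33.4 CPM, Ccl4 at 70.2 against 8.05, Col1a1 at 87.7 against 11.6, Rarres2 at 94.8 against 12.9 and Serping1 at 58.6 against 8.73. Saa3 is an acute phase protein, Ccl4 a chemokine of leukocytes and Col1a1 a collagen of fibroblasts. Shares and differences are therefore given with these barcodes and, where that moves them, without them.

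**Figure D1:**
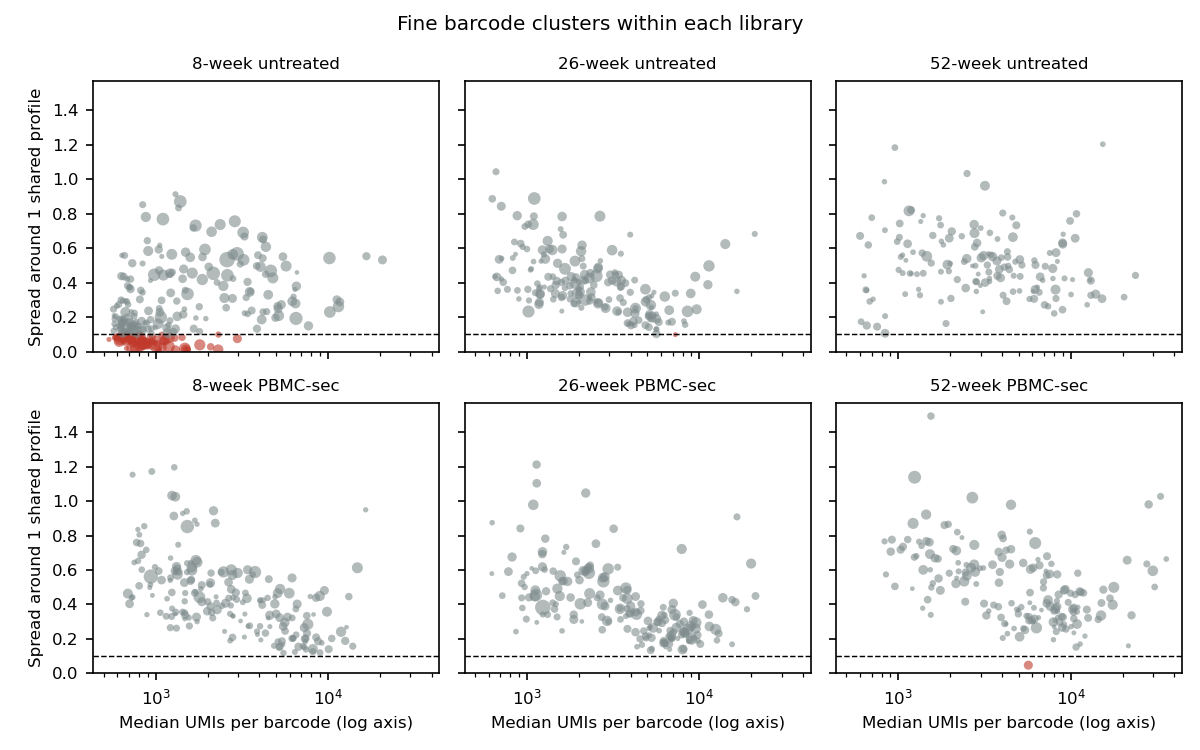
Each point is a fine cluster of at least 10 barcodes in 1 of the 6 libraries, at its median UMIs per barcode (log axis) and its spread around a single shared profile (0 is random sampling alone), with an area that grows with its number of barcodes. Red points, at or below the dashed line at 0.1, are the near-identical groups: 83 in the untreated 8-week library, 1 each in the 26-week untreated and 52-week PBMC-sec libraries and 0 in the others.

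Cells were placed in a lineage by the summed UMIs of marker genes, relative to the level typical of each lineage. Keratinocytes had a median of 348 keratin and other epithelial marker UMIs per 10000 in the untreated and 323 in the treated library, and fibroblasts had 102 and 93.5 fibroblast marker UMIs. In both libraries the median keratinocyte had 0 marker UMIs of every other lineage. The same sums set the lineages, so these levels are no independent check of the names. Epithelial markers were present in the other lineages too, at 31.0 per 10000 in untreated and 18.0 in treated fibroblasts, and at 39.2 to 75.0 in vascular endothelial, phagocyte and lymphoid cells. Their part in the differences was not tested. Genes whose CPM in all other cells was over 5 times that in the lineage, in either library, are called prone to free RNA below.

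Fibroblasts and vessel cells took larger shares of the treated library, and keratinocytes a smaller one. Keratinocytes were 7369 untreated cells, 79.8% (78.9 to 80.6), and 3658 treated cells, 67.0% (65.7 to 68.3). Fibroblasts were 533 cells, 5.77% (5.30 to 6.27), and 854 cells, 15.6% (14.7 to 16.6). Without the near-identical barcodes the untreated share of fibroblasts was 7.96%, so the ratio of shares was 1.96 in place of 2.71. Vascular endothelial cells were 0.682% and 2.29% of cells, or 0.955% and 2.29% without those barcodes. Pericytes or smooth muscle cells, the contractile cells around vessels, were 26 untreated and 103 treated cells, 0.281% and 1.89%. Most of these directions were not shared by the 26-week pair. There keratinocytes were 60.4% untreated and 66.1% treated, fibroblasts 21.8% and 15.3%, and vascular endothelial cells 1.54% and 1.38%. Pericytes or smooth muscle cells, at 0.412% and 0.878%, kept theirs.

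The immune shares did not differ in a way that held across the ways of counting. Mononuclear phagocytes, that is macrophages, monocytes and dendritic cells including those of the epidermis, were 147 and 153 cells, 1.59% and 2.80%, with a log2 ratio of shares of 0.82. That ratio was 0.35 without the near-identical barcodes and -0.02 when lineages were set by cluster. T or innate lymphoid cells were 89 in each library, 0.964% and 1.63%, and their log2 ratio of 0.76 turned to -0.86 among cells of at least 1000 UMIs. The median lymphoid cell had 1491 UMIs untreated and 938 treated. Cells with mixed markers were 9.23% and 4.62%, cells with too few markers 1.07% and 2.91%. Skeletal muscle had 41 and 42 cells, but their median marker level was 502 per 10000 untreated and 32.8 treated, so the cells behind the name differed and are not compared. The 5 lineages with at least 30 cells on both sides and comparable marker levels are compared below.

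**Figure D2:**
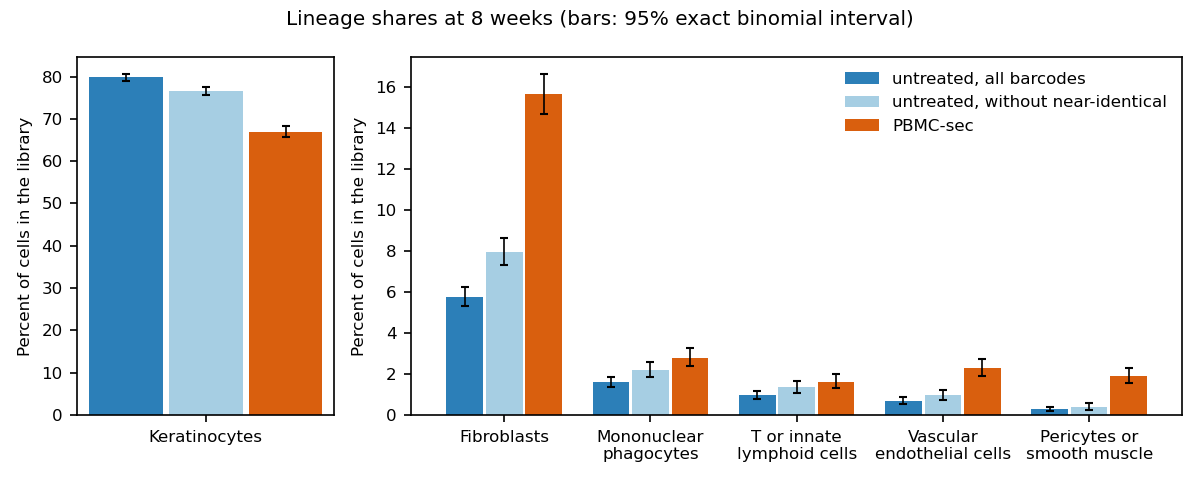
Bars give the percent of cells of each lineage in the untreated 8-week library with all barcodes, in the same library without near-identical barcodes, and in the PBMC-sec library, with 95% exact binomial intervals that cover counting error only. Keratinocytes go from 79.8% to 67.0%, and fibroblasts go from 5.77%, or 7.96% without near-identical barcodes, to 15.6%.

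Among keratinocytes, cells led by basal markers were 63.0% (61.9 to 64.1) untreated and 73.2% (71.7 to 74.6) treated. Suprabasal cells were 8.39% (7.76 to 9.04) and 5.22% (4.52 to 5.99), and cells led by follicle markers 28.6% (27.6 to 29.7) and 21.6% (20.2 to 22.9). Without the near-identical barcodes the untreated shares were 64.7%, 7.62% and 27.6%. The counting intervals of the treated and untreated shares did not overlap with or without these barcodes, but pooling and animal variation lie outside them. Only the follicle share kept its direction in both the 26-week and the 52-week pair. At 26 weeks suprabasal cells held 3.62% of the untreated keratinocytes and 7.79% of the treated ones. Their shares at 52 weeks were 7.73% and 17.7%. Basal cells held 65.8% and 64.3%, then 51.3% and 50.7%. Follicle cells held 30.6% and 27.9%, then 41.0% and 31.5%. The median depth of basal cells at 8 weeks was 1032.5 UMIs untreated and 3600 treated.

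In fibroblasts, the cells that build the dermal matrix, genes of the interferon response were lower after PBMC-sec and a group of cytokine and stress genes was higher. Of 5471 genes with at least 100 UMIs in both libraries together, 126 were higher by 2-fold or more in treated fibroblasts, 2.3% of the genes measured, and 183 were lower by 2-fold or more, 3.34%. The median log2 ratio over all measured genes was 0.01. Of the 26 genes of the type I interferon list, 24 were measured in fibroblasts, and 22 of these were lower by 2-fold or more and 1 was higher. The median log2 ratio of the list was -2.04. None of the 24 was prone to free RNA, and the median was -2.05 without near-identical barcodes.

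The sequences before Ifit3, Isg15 and Rsad2 of this list, and before the interferon-induced chemokine gene Cxcl10 of the cytokine list, are shown because they hold letters that match the element through which interferon acts. Each is the 250 bases before the start in RefSeq on GRCm38.p6, 5′ to 3′ on the strand of the gene, with matches to TTTC, then any 2 bases, then TTTC in capitals (on the other strand GAAA, any 2 bases, GAAA). Positions are chr5:92348890-92349139 for Cxcl10, chr19:34583279-34583528 for Ifit3, chr4:156200819-156201068 for Isg15 and chr12:26456453-26456702 for Rsad2.
Cxcl10: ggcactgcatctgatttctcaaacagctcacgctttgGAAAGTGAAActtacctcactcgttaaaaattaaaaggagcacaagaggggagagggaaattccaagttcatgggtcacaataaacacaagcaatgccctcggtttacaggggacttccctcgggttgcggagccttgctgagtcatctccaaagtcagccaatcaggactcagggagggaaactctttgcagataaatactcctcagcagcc
Ifit3: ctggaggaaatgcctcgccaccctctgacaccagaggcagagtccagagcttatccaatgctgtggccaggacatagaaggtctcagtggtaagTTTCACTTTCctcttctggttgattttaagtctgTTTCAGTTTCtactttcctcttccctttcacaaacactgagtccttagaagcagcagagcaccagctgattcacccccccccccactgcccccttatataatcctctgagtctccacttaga
Isg15: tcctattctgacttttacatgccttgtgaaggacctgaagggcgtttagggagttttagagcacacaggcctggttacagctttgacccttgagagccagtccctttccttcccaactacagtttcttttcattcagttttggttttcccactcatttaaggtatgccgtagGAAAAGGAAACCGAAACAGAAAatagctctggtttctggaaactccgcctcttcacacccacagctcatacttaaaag
Rsad2: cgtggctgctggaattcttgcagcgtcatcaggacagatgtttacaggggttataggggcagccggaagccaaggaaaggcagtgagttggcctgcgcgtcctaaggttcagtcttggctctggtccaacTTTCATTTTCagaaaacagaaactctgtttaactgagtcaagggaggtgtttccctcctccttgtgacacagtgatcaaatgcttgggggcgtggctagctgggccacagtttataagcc
Cxcl10 and Rsad2 each held 1 match, Ifit3 held 2, and Isg15 held 3, each overlapping the next. Among all 32851 windows of this length 2.98% held a match. Of the 16 interferon list genes with an entry in the promoter table, 7 had a window with a match, namely Isg15, Ifit1, Ifit3, Rsad2, Oas1a, Stat2 and Bst2, against 3.46% of all 27025 genes with an entry. In the class I presentation list 2 of 11 had one, in the cytokine list 2 of 22, namely Cxcl10 and Saa3, in the osmotic list 1 of 8, namely Sgk1, and in the list of NRF2 antioxidant genes 0 of 17. A match describes these letters and does not show that a factor was bound.

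Among fibroblast genes not prone to free RNA and with at least 100 CPM in 1 library, the 8 with the lowest ratios are all known to respond to interferon. Cxcl9, a chemokine that draws T cells and is classically induced by interferon gamma, had 174 CPM in untreated and 2.93 CPM in treated fibroblasts, a log2 ratio of -5.89 (-6.96 to -4.996). In the untreated library 1 cell held 23.9% of its UMIs. Cxcl10, its neighbour on chromosome 5 (92346638 to 92348889), had 745 and 29.0 CPM, a log2 ratio of -4.69 (-4.99 to -4.39). This chemokine was seen in 150 of 533 untreated and 38 of 854 treated fibroblasts, and no untreated cell held over 4.44% of its UMIs.

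Members of the Ifit family, which bind foreign RNA, lay close together on chromosome 19 and were low together. Ifit3 had 417 CPM untreated and 32.5 treated (log2 ratio -3.68), Ifit3b 130 and 7.90 (-4.04), and Ifit1 203 and 19.3 (-3.40). Ifit3 and Ifit3b are near copies of each other, and how their reads were divided is uncertain. Rsad2, the antiviral enzyme viperin, had 208 and 19.0 CPM (-3.45), Isg20, an exonuclease of viral RNA, 178 and 25.7 CPM (-2.79), and Gbp2, a guanylate binding protein, 149 and 20.8 CPM (-2.84). Among the most abundant members of the list, Bst2, which tethers viruses to the cell surface, had 2171 and 474 CPM (-2.20), and Isg15, a ubiquitin-like modifier, had 1703 and 360 CPM (-2.24). Ifi27 was higher, with a log2 ratio of 1.16, and Ifitm3 had a ratio of -0.01.

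Antigen presentation by MHC class I followed the same direction in fibroblasts. Of the 12 measured genes of this list 10 were lower by 2-fold or more and 0 were higher, with a median log2 ratio of -1.499. B2m, the shared light chain, had 3072 CPM untreated and 1190 treated, a log2 ratio of -1.37 (-1.42 to -1.31). Psmb9 and Psmb8, the subunits of the immunoproteasome, had log2 ratios of -2.96 and -1.75, and Tap1, which carries peptides into the endoplasmic reticulum, had -2.54. The heavy chain H2-D1 and the nonclassical H2-T23 did not reach 2-fold, at -0.86 and -0.61. Class I heavy chains are near copies of each other, so single values among them are uncertain.

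The highest ratio in fibroblasts was that of Il11, a cytokine of the interleukin 6 family known for its part in fibrosis. It had 3 UMIs in 533 untreated and 592 UMIs in 854 treated fibroblasts, which is 1.32 and 173 CPM and a log2 ratio of 7.03 (5.48 to 9.31). The treated UMIs came from 78 cells, of which the highest held 11.0%. Tslp, the epithelial alarmin that acts on dendritic and type 2 immune cells, had 19.0 and 353 CPM, a log2 ratio of 4.22 (3.78 to 4.69). Ereg, a ligand of the epidermal growth factor receptor, had 34.4 and 229 CPM (2.73). Spp1, the secreted phosphoprotein osteopontin, had 27.8 and 167 CPM (2.58), and 8 untreated and 29 treated cells held all of its UMIs.

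Other named genes with high ratios in fibroblasts were of several kinds. Akr1b3, which encodes aldose reductase, had 74.6 CPM untreated and 683 treated in fibroblasts (3.19), and Hspa4l, a heat shock protein relative known to respond to hypertonic stress, had 74.2 and 313 CPM (2.08). Nqo1, a quinone reductase and a target of the antioxidant factor NRF2, had 37.1 and 158 CPM (2.09), and the linker histone gene Hist1h1c had 45.9 and 214 CPM (2.22). Of 18 measured NRF2 genes in fibroblasts 5 were higher by 2-fold or more and 0 lower, with a median of 0.40. Besides Nqo1 these were Slc7a11, the cystine carrier, at 1.48, Gclc, the first enzyme of glutathione synthesis, at 1.43, Srxn1 at 1.24 and Prdx1 at 1.22.

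Inflammatory cytokines and proteases of fibroblasts went both ways. Of 23 measured members of the cytokine list 5 were higher by 2-fold or more, namely the neutrophil chemokines Cxcl3 (1.35), Cxcl2 (1.28), Cxcl5 (1.22) and Cxcl1 (1.14) and the cytokine Il6 (1.28). The 4 lower ones were Ccl4 (-6.34, prone to free RNA), Cxcl10 (-4.69), the eosinophil chemokine Ccl11 (-2.25) and the alarmin Il33 (-1.01). The mix of fibroblasts differed too. A cluster with Cxcl5, Cxcl1 and Il6 among its leading genes held 303 untreated and 639 treated cells. Another, led by Ctsk and Serpina3n, held 262 and 336, and one led by Col1a1 and Col3a1 held 41 and 5. Fibroblasts were not compared within clusters, so the part of this mix was not tested. Of 19 matrix protease genes 4 were higher, led by the collagenase Mmp13 (1.98) and the urokinase Plau (1.601), and Adamts5 (-1.34) and Mmp10 (-1.12) were lower. Among 13 heat shock genes, with a median of -0.35, Hspa1a, Dnajb1, Hspa1b and Hspb1 were lower by 2-fold or more, between -1.23 and -1.16, and Cryab was higher at 1.61. Hspa1a and Hspa1b are near copies, and the split of reads between them is uncertain. All 16 measured genes of the unfolded protein response had negative ratios in fibroblasts, with 0 past 2-fold and a median of -0.45, which was 0.01 with lineages set by cluster.

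**Figure D3:**
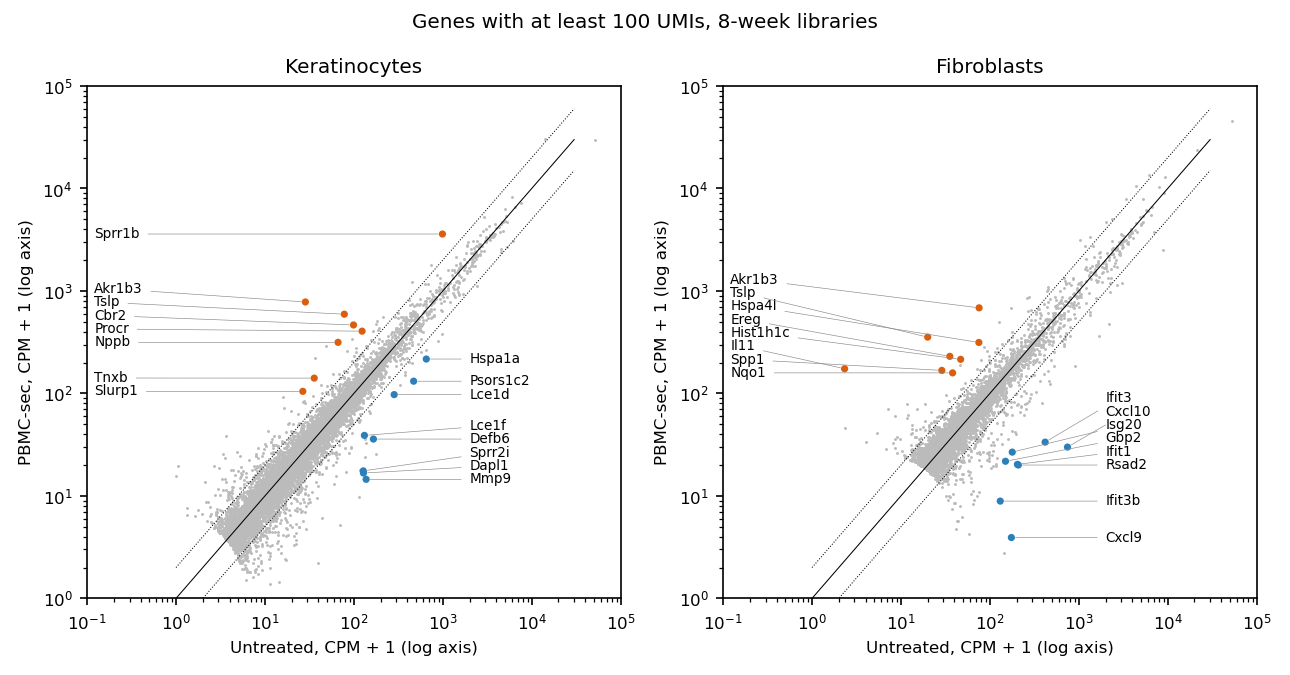
Each grey point is a gene with at least 100 UMIs in the 2 libraries together, at its CPM plus 1 in untreated (horizontal) and PBMC-sec (vertical) cells of the lineage, both on log axes, with lines at equality and at 2-fold. Coloured points are the named genes, among which Akr1b3 and Tslp lie above the lines in both lineages and the interferon genes lie below them in fibroblasts.

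In keratinocytes aldose reductase had the highest ratio, and genes of barrier formation changed in both directions. Of 10152 measured genes 255 were higher by 2-fold or more in treated keratinocytes, 2.51% of the genes measured, and 359 were lower by 2-fold or more, 3.54%. The median log2 ratio was -0.00. Without the near-identical barcodes 252 were higher and 291 lower, and 229 and 274 genes were in both counts. Of the 359 lower genes 150 were prone to free RNA. Malat1, the nuclear RNA, had 14124 CPM in untreated and 30192 CPM in treated keratinocytes, a log2 ratio of 1.10, and Gm42418 had 51514 and 29650 CPM, a log2 ratio of -0.80. Their part in the other differences was not tested. The mix of keratinocytes differed too. A cluster led by Krt15 held 3833 untreated and 139 treated cells, and one led by Mmp9 held 171 and 3. One led by Cbr2 and Krt5 held 25 and 863, and one led by Nppb, with Tslp among its leading genes, 70 and 366. Others were less uneven, such as one led by Krt79 with 388 and 533. Keratinocytes were compared within states but not within clusters, so the part of this mix was not tested.

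Akr1b3 (chromosome 6, 34302434 to 34317478, minus strand, GRCm38) had 510 UMIs in 7369 untreated and 14132 UMIs in 3658 treated keratinocytes. This is 27.5 and 780 CPM, a log2 ratio of 4.83 (4.70 to 4.96), and 4.803 without the near-identical barcodes. It was higher in every keratinocyte state, from 30.5 to 640 CPM in basal, from 24.1 to 485 CPM in follicle and from 20.6 to 3056 CPM in suprabasal cells. The ratio in suprabasal cells, 7.21 (6.78 to 7.69), lay above those in basal cells, 4.39 (4.23 to 4.55), and follicle cells, 4.33 (4.08 to 4.60), beyond counting error.

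Signals that keratinocytes secrete were also higher. Tslp had 77.0 CPM untreated and 592 treated, a log2 ratio of 2.94 (2.86 to 3.02). This came from basal cells, with 78.9 and 740 CPM, and follicle cells, with 51.3 and 132 CPM, whereas suprabasal cells had 137 and 111 CPM. Nppb, the precursor of a natriuretic peptide, had 65.4 and 314 CPM (2.26), with 2.37 in basal and 0.36 in follicle cells, and Slurp1, a secreted ligand of nicotinic receptors, 25.7 and 104 CPM (2.02). Slurp1 was highest in suprabasal cells, with 142 and 1063 CPM. Follicle cells had 31.8 and 177 CPM of it, and basal cells had 9 and 7 UMIs. The growth factor genes Btc and Epgn, both ligands of the epidermal growth factor receptor, had log2 ratios of 3.83 and 1.13. In the list of such ligands and their feedback genes 2 of 11 measured members were higher by 2-fold or more. In that list 0 were lower, and the median was 0.36.

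Other high genes of keratinocytes were of metabolism, matrix and barrier, and some passed 2-fold in basal cells but not in every other state. Cbr2, a carbonyl reductase, had 98.0 and 465 CPM (2.24), Tnxb, which encodes the matrix protein tenascin X, 34.8 and 140 CPM (2.01), and Procr, the receptor of protein C, 123 and 404 CPM (1.72). In basal, suprabasal and follicle cells the log2 ratios were 1.98, 0.60 and 0.66 for Cbr2 and 1.51, 0.79 and 0.67 for Procr, past 2-fold in basal cells only, while Tnxb had 1.74, 1.75 and 1.51. Sprr1b, a small proline-rich protein of the cornified envelope that is known to rise in stressed epidermis, had 990 and 3593 CPM (1.86). In suprabasal cells it had 895 and 10339 CPM. Filaggrin, Flg, the protein that bundles keratin in the outer layers, had a log2 ratio of 1.46 over all keratinocytes and 1.90 in suprabasal cells, from 1073 to 4000 CPM.

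The low genes of keratinocytes included a protease and several barrier genes. Mmp9, a gelatinase that cuts basement membrane, had 136 CPM untreated and 13.5 treated, a log2 ratio of -3.33 (-3.53 to -3.14), and -3.11 without the near-identical barcodes. Dapl1, a gene of early keratinocyte differentiation, had 127 and 15.7 CPM (-3.01). Sprr2i had 127 and 16.6 CPM (-2.94), although 1 treated cell held 46.0% of its UMIs. Defb6, a beta defensin of the follicle, had 165 and 34.9 CPM (-2.24).

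Of 14 measured genes of the cornified envelope list 1 was higher by 2-fold or more, Flg, and 2 were lower, Lce1c (-1.44) and Lce1a1 (-1.16), with a median of -0.06. The named genes of this kind were held by few cells. Lce1d and Lce1f, late cornified envelope proteins on chromosome 3, had 283 and 96.4 CPM (-1.55) and 130 and 38.0 CPM (-1.78). For Lce1d 166 untreated and 36 treated cells held all UMIs, and 1 untreated cell held 26.0%. Psors1c2 had 469 and 131 CPM (-1.84). In suprabasal cells alone Lce1d had 1733 and 1287 CPM (-0.43) and Lce1f 671 and 424 CPM (-0.66), neither of them past 2-fold. In follicle cells Lce1d had 217 and 44.2 CPM (-2.29). Sprr1b, Sprr2i, Lce1d and Lce1f lie in the same gene cluster on chromosome 3, between 92407991 and 92720350, and did not share a direction. Hspa1a, the inducible heat shock protein 70, had 651 and 216 CPM (-1.60), and its copy Hspa1b had a log2 ratio of -1.28.

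Interferon genes were low in treated keratinocytes too, and most of those measured were prone to free RNA. Of 22 measured members of the list 18 were lower by 2-fold or more and 0 were higher, with a median log2 ratio of -2.53, or -2.28 without the near-identical barcodes. Of the 22, 16 were prone to free RNA. Among the other 6, 3 were lower by 2-fold or more, namely Usp18 (-2.12), Ifi35 (-1.36) and Stat2 (-1.12), with a median of -0.97 over the 6. Isg15 had 178 CPM in untreated keratinocytes, against 1703 CPM in untreated fibroblasts. The class I list had 3 of 13 members lower by 2-fold or more and 0 higher, with a median of -0.50 that turned to 0.25 in suprabasal cells alone. Its lower members were Psmb9 (-1.60), Tap2 (-1.24) and Psmb8 (-1.13).

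Inflammatory genes of keratinocytes had 2 of 29 measured members higher by 2-fold or more and 10 lower, with a median of -0.38, and 21 of the 29 were prone to free RNA. Among the others Ptgs2, the inducible cyclooxygenase, was higher with 447 and 1211 CPM (1.44). The chemokine Ccl20 (-1.15), the interleukin 1 receptor antagonist Il1rn (-1.16) and Il1a (-1.22) were lower. The list median was -0.08 without near-identical barcodes and 0.02 when groups with a spread up to 0.15 were left out. Of 20 measured NRF2 genes Gpx2 (2.20) and Nqo1 (1.52) were higher and 0 lower, with a median of 0.26. Of 19 genes of hypoxia and glycolysis the peptide hormone gene Adm was higher, with 213 and 559 CPM (1.39), and 0 were lower.

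Cell cycle genes of keratinocytes had a positive median. Of 18 measured genes 4 were higher by 2-fold or more and 0 lower, with a median log2 ratio of 0.69. The 4 were the replication factors Mcm5 (1.52) and Mcm2 (1.37) and the mitotic regulators Ccnb1 (1.08) and Cdk1 (1.003). The median was -0.04 with cells thinned to 500 UMIs, -0.17 in follicle cells and -0.66 in suprabasal cells. Of 12 measured genes of the follicle list 3 were lower by 2-fold or more and 0 higher, with a median of -0.32. They were Defb6 and the connexins Gjb6 (-1.80) and Gjb2 (-1.36). Gjb6 had 55.6 and 4.499 CPM in basal cells (-3.63), but 167 and 98.4 CPM in follicle cells (-0.76) and 41.7 and 70.5 CPM in suprabasal cells (0.76, 0.31 to 1.21). Gjb2 had 534 and 166 CPM in basal, 1923 and 1197 CPM in follicle and 765 and 704 CPM in suprabasal cells. Gjb2 is itself among the markers that set the follicle state, so its values by state are not independent of that rule.

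Keratinocytes and fibroblasts shared part of their changes. Among 5200 genes measured in both, 70 were higher by 2-fold or more in keratinocytes and 95 in fibroblasts, and 26 were in both groups, 37.1% of the first and 27.4% of the second. The shared ones included Akr1b3, Tslp, Il11, Hspa4l, Fxyd2, Nqo1, Procr, Sprr1b and H1f0. Il11 and Fxyd2 were prone to free RNA in keratinocytes. The lower genes numbered 171 and 149, and 71 were in both groups, 41.5% and 47.7%. Many of these were interferon genes such as Isg15, Bst2, Rsad2, Oasl2 and Irf7, which in keratinocytes were prone to free RNA.

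Akr1b3 was also higher in the other lineages with enough counts. It had 45.0 and 755 CPM in mononuclear phagocytes (log2 ratio 4.07, 3.45 to 4.75) and 24.97 and 701 CPM in vascular endothelial cells (4.81, 3.56 to 6.45), although 1 treated endothelial cell held 39.7% of its UMIs there. The phagocytes of the Cd207 cluster had 14 and 8 UMIs of it, a log2 ratio of 0.51 (-0.95 to 1.87), and those of the Pf4 cluster 9 and 201 UMIs (4.33, 3.38 to 5.48). In T or innate lymphoid cells it had 7 and 12 UMIs, a log2 ratio of 1.37 with an interval of -0.10 to 2.95 that includes 0. The treated levels lay between 683 and 780 CPM in 4 lineages, and their order from keratinocytes down to fibroblasts spans less than the spread between keratinocyte states. Fxyd2, a regulator of the sodium pump, had 35.2 and 1241 CPM in mononuclear phagocytes (5.14, 4.46 to 5.91), the highest ratio there, and 4.42 and 40.1 CPM in fibroblasts (3.18).

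The osmotic list, which holds Akr1b3, had members past 2-fold in both lineages. In keratinocytes 3 of 10 measured members were higher by 2-fold or more and 0 lower, with a median of 0.47, and in fibroblasts 4 of 10 and 0, with a median of 0.66. The medians were 0.92 and 2.52 with cells thinned to 500 UMIs, where fewer genes reached 100 UMIs, and 0.23, 1.51 and 0.80 in basal, suprabasal and follicle keratinocytes. In keratinocytes 1 of the 3 higher members was prone to free RNA. Of the 9 members that were not, 2 were higher, and the median of the 9 was 0.44. The list was chosen with earlier results of these data known, so its counts are no independent test of the osmotic program. Nfat5, the factor that drives this program, had log2 ratios of 0.44 in keratinocytes and 0.08 in fibroblasts. The inositol carrier Slc5a3 had 0.19 and 1.22, and the taurine carrier Slc6a6 had 0.50 and 0.72. For Akr1b3 too, the part of PBMC-sec and that of the ex vivo holding cannot be told apart. H1f0, a linker histone known from resting cells, was higher by 2-fold or more in the 4 lineages with enough counts, at 1.18 in keratinocytes, 2.004 in fibroblasts, 2.58 in phagocytes and 2.32 in endothelial cells. Lymphoid cells had 16 and 49 UMIs, below the minimum of 100, and a ratio of 2.20.

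In mononuclear phagocytes members of the cytokine list were higher over the whole class, but the class held a different mix of cells on each side. Cluster 0, led by Cd74, H2-Eb1, H2-Aa and Cd207 (langerin of Langerhans cells), made up 93 of 147 untreated and 71 of 153 treated phagocytes, 63.3% and 46.4%. Cluster 20, led by Ccl4, Ccl3 and Pf4, made up 53 and 79 cells, 36.1% and 51.6%. Lyz2, the lysozyme of macrophages and monocytes, had 329 and 1361 CPM over the class. Other macrophage markers went both ways: Pf4 had 2699 and 5396 CPM and C1qa 472 and 606. C1qb had 617 and 473 CPM, C1qc 360 and 344, Cd68 264 and 282 and Aif1 76.3 and 29.2. These genes are among the markers that set the class, so their levels are not independent of it. Of 1070 measured genes 47 were higher by 2-fold or more, 4.39%, and 57 were lower by 2-fold or more, 5.33%, with a median log2 ratio of -0.14. Scaling by trimmed means (TMM) shifted this median to 0.01 and gave 63 higher and 36 lower genes, so 63.6% of the changed genes were higher in place of 45.2%. The median phagocyte had 3052 UMIs untreated and 1712 treated. Of 19 measured cytokine genes 8 were higher by 2-fold or more and 0 lower, with a median of 0.93.

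Within each cluster, an alternative added after the data had been seen, the cytokine list had lower medians than over the class. Ccl4, Ccl3 and Il1b are among the leading genes of cluster 20, so the clusters are not independent of these values. In cluster 0, 13 of 710 measured genes were higher by 2-fold or more, 1.83%, and 36 lower, 5.07%, and among 10 measured cytokine genes 2 were higher and 2 lower, with a median of 0.23. Cxcl1 (1.74) and Tnf (1.03) were higher there, and Ccl4 (-2.19) and Ccl3 (-1.08) lower. In cluster 20, 12 of 336 genes were higher, 3.57%, and 17 lower, 5.06%, and among 18 cytokine genes Cxcl3 (1.63) and Il1b (1.01) were higher and 0 lower, with a median of 0.30. The interferon list kept its direction in both, with 4 of 5 lower and a median of -1.81 in cluster 0, 5 of 8 lower and a median of -1.12 in cluster 20, and 0 higher in either.

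Over the whole class, the higher cytokine genes of phagocytes included the chemokines Cxcl3 (2.22), Cxcl1 (1.75), Ccl3 (1.16) and Cxcl5 (1.03), and the cytokines Il1a (1.18) and Tnf (1.09). Csf2 (4.23) was prone to free RNA. Arg1, the arginase of alternatively activated macrophages, had 78.3 and 574 CPM (2.87), and Thbs1, the matrix protein thrombospondin 1, 147 and 1212 CPM (3.05). Single treated cells held 19.8% and 15.8% of their UMIs. Within cluster 20 their ratios were 2.03 and 2.39. Among 10 NRF2 genes 3 were higher, namely Hmox1, the heme-degrading enzyme, and Srxn1, both at 1.31, and Prdx1 at 1.17. Within the clusters 0 NRF2 genes were past 2-fold among the 6 and 7 measured, with medians of 0.10 and 0.16.

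The lower genes of phagocytes included members of the interferon list, 5 of 11 measured, with 0 higher and a median of -0.79. Irf7, which amplifies interferon production, had 233 and 55.1 CPM (-2.08). Isg15 itself had 2016 and 1170 CPM (-0.79), and Rsad2 795 and 590 CPM (-0.43), neither of them past 2-fold. Within cluster 0 Isg15 had 1243 and 279 CPM (-2.15), and within cluster 20 it had 4594 and 2393 CPM (-0.94). Gyg, the primer of glycogen synthesis, had 196 and 32.4 CPM (-2.59), and Ramp3, a receptor activity modifying protein, 388 and 71.3 CPM (-2.44). The class I list had 3 of 10 lower and 0 higher, B2m among them with 3783 and 1889 CPM (-1.002).

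In vascular endothelial cells, 63 untreated and 125 treated, members of the interferon list and of the unfolded protein response were lower and members of the cytokine list higher. Of 716 measured genes 33 were higher by 2-fold or more, 4.61%, and 33 were lower, also 4.61%, with a median log2 ratio of -0.01 (-0.10 with TMM scaling, with 29 higher and 38 lower). Of 5 measured interferon genes 3 were lower and 0 higher, namely Bst2 with 1578 and 320 CPM (-2.30), Isg15 with 1433 and 313 CPM (-2.19) and Rsad2 with 539 and 127 CPM (-2.09). Of 7 measured genes of the unfolded protein response, which restores folding in the endoplasmic reticulum, 5 were lower and 0 higher, with a median of -1.51. Hsp90b1, the chaperone GRP94, had 3265 and 778 CPM (-2.07), and Hspa5, the chaperone BiP, had a log2 ratio of -1.70. With lineages set by cluster the median of this list was -0.68 and Hsp90b1 had -0.82, no longer past 2-fold. Of 8 measured heat shock genes 1 was higher and 0 lower, with a median of 0.22.

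The cytokine list of endothelial cells had 5 of 9 members higher by 2-fold or more and 0 lower, with a median of 1.10. They were Cxcl2 (1.91), Cxcl5 (1.603), Ccl2 (1.14), Il6 (1.13) and Ccl7 (1.10). Gal, the neuropeptide galanin, had 39.9 and 412 CPM (3.37), but its 8 untreated UMIs came from 1 cell and its treated ones from 14 cells.

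In T or innate lymphoid cells few genes could be measured. Of 282 genes 3 were higher by 2-fold or more, 1.06%, and 4 were lower by 2-fold or more, 1.42%, with a median log2 ratio of -0.10. Gzmc, a granzyme of cytotoxic cells, had 2 and 119 UMIs, a log2 ratio of 6.48 (4.60 to 9.54), but the treated UMIs came from 10 cells and 40.3% of them from 1 cell. Neat1, a nuclear RNA, had 647 and 2239 CPM (1.79), and Ly6a, a surface antigen known to respond to interferon, 293 and 746 CPM (1.35). Nfkbia, the inhibitor of NF-kB, had 399 and 792 CPM (0.99), just short of 2-fold. Dnajb1, a heat shock co-chaperone, had 655 and 181 CPM (-1.86), the histone gene H2afy 632 and 249 CPM (-1.35), and Stfa1, a cysteine protease inhibitor, 572 and 271 CPM (-1.08). Rps28, a ribosomal protein, had 1189 and 633 CPM (-0.91). In the interferon list 2 genes were measured here, Bst2 at -0.29 and Ly6e at 0.59.

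**Figure D4:**
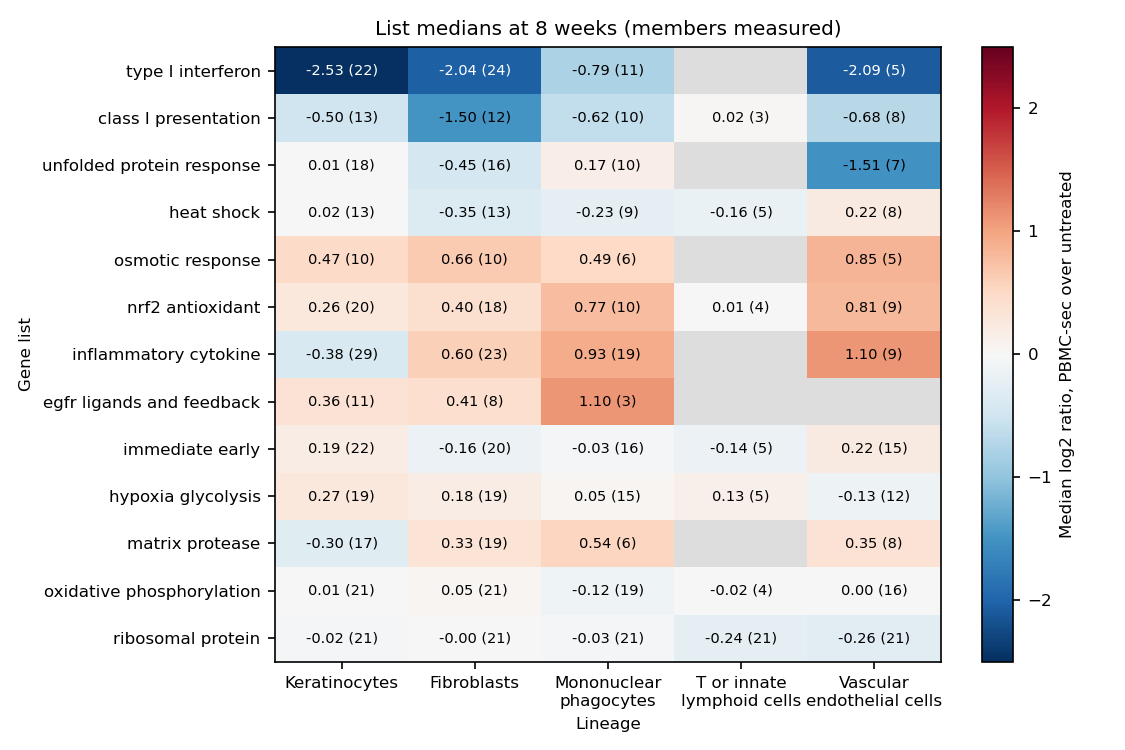
Colours and numbers give the median log2 ratio of PBMC-sec over untreated CPM for each gene list (rows) in each lineage (columns), with the number of measured members in parentheses and grey where under 3 were measured. The interferon row is negative in the 4 lineages shown, from -2.53 in keratinocytes to -0.79 in phagocytes, and the medians of ribosomal proteins lie between -0.26 and -0.00 in all 5.

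Housekeeping lists differed little in the main setting. The 21 ribosomal protein genes had a median log2 ratio of -0.02 in keratinocytes and -0.00 in fibroblasts, with 0 past 2-fold in either. The 21 genes of oxidative phosphorylation had 0.01 and 0.05, again with 0 past 2-fold. Over the alternatives the keratinocyte medians ranged from -0.93 to 0.06 for ribosomal proteins and from -0.60 to 0.04 for oxidative phosphorylation. The fibroblast medians ranged from -0.01 to 0.08 and from -0.03 to 0.06. Immediate early genes such as Fos and Jun, which also answer to tissue dissociation, had medians of 0.19 and -0.16, with 1 gene higher and 0 lower in each lineage.

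The 26-week and 52-week pairs of libraries, which share no library with the 8-week pair, gave the same sign for most of the 8-week differences in keratinocytes and fibroblasts. In keratinocytes 95.2% of 228 higher genes and 90.9% of 297 lower genes had the same sign at 26 weeks, where 68.2% of all measured genes did. At 52 weeks the same held for 74.5% of 220 and 92.7% of 289, against 56.9% of all genes, but there the median of all genes was -0.61 and 84.7% of all genes were negative. In fibroblasts it was 83.5% of 103 and 91.5% of 165 at 26 weeks, against 63.5%, and 83.7% of 123 and 84.6% of 182 at 52 weeks, against 64.1%. In phagocytes it was 84.1% of 44 and 84.8% of 46 at 26 weeks, against 65.6%, but 71.1% of 45 and 54.7% of 53 at 52 weeks, against 57.2%, where 59.9% of all genes were negative. In endothelial cells it was 73.9% of 23 and 85.7% of 28, against 56.5%, and 76.2% of 21 and 22 of 22, against 66.9%. Lymphoid cells had 3 higher and 4 lower genes of the same sign at 26 weeks, and 1 of 2 higher genes at 52 weeks. These shares describe 1 pair of libraries per age, and ex vivo holding and PBMC-sec coincide in every pair.

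Some genes kept their size over the ages and others did not. Akr1b3 had log2 ratios of 4.83, 4.12 and 4.62 at 8, 26 and 52 weeks in keratinocytes and 3.19, 2.94 and 3.29 in fibroblasts. Hspa4l in fibroblasts had 2.08, 2.16 and 2.16. Il11 in fibroblasts had 7.03 at 8 weeks, 0.77 at 26 and 2.09 at 52. The interferon list of fibroblasts had medians of -2.04, -1.92 and -0.15, and Cxcl9 had -5.89, -3.79 and -0.70. In keratinocytes Mmp9 had -3.33, -4.47 and -2.71. Whether the ages differ was not tested, since each has 1 library per condition.

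**Figure D5:**
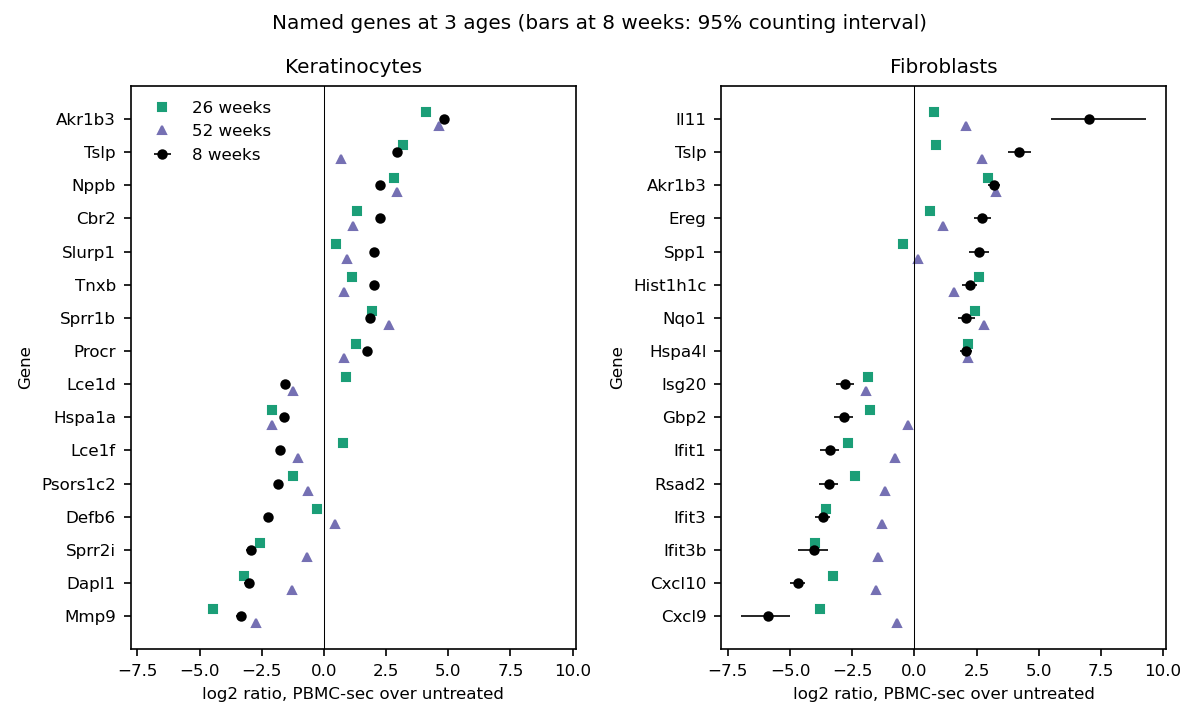
Log2 ratios of PBMC-sec over untreated CPM for the named genes of keratinocytes (left) and fibroblasts (right) at 8 weeks (black circles, with 95% counting intervals), 26 weeks (squares) and 52 weeks (triangles). Akr1b3 stays between 2.94 and 4.83 in both lineages at all ages, while the interferon genes of fibroblasts lie closer to 0 at 52 weeks than at 8 weeks.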

How the data were processed

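Per the file headers, the authors deposited whole-number UMI counts per gene and barcode from Cell Ranger 5.0.1, with barcodes already called as cells and no normalization. Per the labels, libraries were made with the Chromium 3′ kit, version 3.1. The barcodes look like those of an older list than this kit uses, so the kit version is uncertain. The genome was mm10, also named GRCm38, as the submitters' processing notes list it. Gene positions came from GENCODE vM21. Cells were filtered as stated, and lineages were set by marker sums: at least 2 markers, a level of at least 0.2 of the typical one, and mixed where the second lineage reached 0.5 of the first. UMIs were summed per library and lineage and scaled to CPM. Marker and mitochondrial genes were left out of the counts. Log2 ratios have exact conditional binomial intervals, tested on simulated data. Scanpy 1.11.5, edgeR 4.0.16 (TMM factors only) and DESeq2 1.42.0 (size factors only) were used.

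Named genes were the 8 highest and 8 lowest ratios in keratinocytes and fibroblasts, and the 4 highest and 4 lowest in the other lineages, among genes not prone to free RNA with at least 100 UMIs in both sums together and at least 100 CPM in 1 of them. The 4 most abundant members of each list and the genes of the near-identical barcodes came by rules of the same kind. Some genes that this rule names are not reported here. Other list members, and genes shown by state or lineage, were chosen after their values were seen. Members and lists were chosen with earlier results of these data known. The planned measure of near-identical barcodes, a Pearson dispersion, was replaced by the overdispersion, which does not depend on depth in the same way. Mx1 and Il36g were not analysed here. Alternatives covered the near-identical barcodes, depth, mitochondrial share, doublet scores, clusters, thinning, scaling, the UMI minimum, keratinocyte states and, added after seeing the data, phagocyte clusters.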

Additional observations from a re-analysis of the deposited data

Results flagged for a closer look

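Some named genes had an opposite sign at another age, with counting intervals that exclude 0 on both sides. The difference between ages was not tested. Defb6 in keratinocytes had a log2 ratio of -2.24 at 8 weeks and 0.434 at 52 weeks. Lce1f had -1.78 at 8 weeks and 0.771 at 26 weeks, and Lce1d had -1.55 and 0.869, both in keratinocytes. Spp1 in fibroblasts had 2.58 at 8 weeks and -0.467 at 26 weeks. Rsad2 in vascular endothelial cells had -2.09 at 8 weeks and 0.867 at 52 weeks. Rps28 in T or innate lymphoid cells had -0.909 at 8 weeks, 0.558 at 26 weeks and 0.990 at 52 weeks. In pericytes or smooth muscle cells, which had too few untreated cells to be compared, Akr1b3 had 282 CPM with PBMC-sec and 13.3 CPM without, from 60 UMIs and 1 UMI, a log2 ratio of 4.40 (1.87 to 9.73).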

How the results depend on the processing

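No paired analysis was possible because each group has 1 library. Counts of higher and lower genes are given in the order keratinocytes, fibroblasts, phagocytes, lymphoid cells, endothelial cells. With cells thinned to 500 UMIs they were 127 and 164, 32 and 25, 6 and 5, 1 and 1, and 5 and 1, since fewer genes reached 100 UMIs. With a minimum of 20 UMIs a gene they were 457 and 1015, 421 and 471, 174 and 435, 82 and 91, and 322 and 191, and with a minimum of 1 UMI 2314 and 3436, 2392 and 2329, 2111 and 3210, 2350 and 2695, and 3228 and 2014. Follicle keratinocytes alone gave 147 and 181. TMM and median-of-ratios factors each gave 36 lower genes in phagocytes. Lineages by cluster gave 10 and 13 in lymphoid cells, and cells of at least 1000 UMIs gave 2 lower there. Phagocytes of cluster 0 alone, added after seeing the data, gave 13 and 36 with an interferon median of -1.81, and those of cluster 20, also added, 12 and 17. The interferon median was -1.17 in suprabasal and -1.66 in follicle keratinocytes, and -1.27 in thinned fibroblasts. The log2 ratio of Tslp was -0.31 in suprabasal and that of Slurp1 -0.69 in basal keratinocytes.

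The log2 ratios of shares moved as well. Without near-identical barcodes they were -0.19 for keratinocytes, 0.97 for fibroblasts, 0.35 for phagocytes, 0.27 for lymphoid and 1.26 for endothelial cells. At a spread up to 0.15, added after seeing the data, they were -0.17, 0.83, 0.20, 0.12 and 1.16, and -0.27 for follicle keratinocytes. At a spread up to 0.05, also added, they were 1.27 for fibroblasts and -0.38 for suprabasal keratinocytes. Among cells of at least 1000 UMIs they were -0.16, 0.94, 0.0807, -0.86 and 0.92, and 0.31, -1.04 and -0.56 for basal, suprabasal and follicle keratinocytes. Thinning gave 1.27 for fibroblasts, and lineages by cluster -0.0195 for phagocytes. The cause of these shifts was not tested.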
